A study of Ostreococcus tauri with 84 samples.

Results

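SAR (ostta05g00860), CLC (ostta01g04440) and STX-12g (ostta12g01130) are 3 of the 7668 genes measured, chosen by name for their place in vesicle traffic. In the annotation that the study used they are a small GTPase of the ARF/SAR type, a clathrin light chain and a protein with a conserved syntaxin site. All 3 had a value in each of the 84 libraries. The study followed transcript levels by RNA-seq in the marine picoalga *Ostreococcus tauri*, strain RCC4221, a unicellular green alga grown in column photochemostats, which are illuminated continuous cultures. Cultures lived under long days (LD, 16 h light and 8 h dark) or short days (SD, 8 h light and 16 h dark), and some were then moved to continuous light (LL) or continuous darkness (DD) after LD or SD entrainment. Sampling took place every 4 h from dawn, at Zeitgeber times ZT0 to ZT20 under the cycles and at circadian times CT0 to CT20 in LL and DD, which were sampled after 24 h of acclimation. LD and SD had 18 libraries each, 3 per time point, and each of the 4 constant regimes had 12, 2 per time point. Libraries carry sample numbers 1 to 3 in LD and SD, 4 and 5 in LL, and 6 and 7 in DD. According to the methods these came from consecutive days, so the p-values below measure the spread between such samples and not between independent cultures.

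Newly made proteins leave the endoplasmic reticulum in vesicles with a COPII coat, and in yeast, animals and plants the GTPase Sar1 starts the assembly of that coat. Clathrin forms another coat at the plasma membrane, at endosomes and at the trans-Golgi, where light chains sit on the heavy chains and modulate the lattice. Syntaxins are SNARE proteins of target membranes that pair with partners on the vesicle and drive fusion. By annotation CLC thus belongs to the clathrin coat and STX-12g to fusion. The annotation of SAR, named so by the study, does not separate Sar1 from the related ARF GTPases. Its place in budding from the endoplasmic reticulum was not tested.

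Levels are given in FPKM, fragments per length of transcript and depth of the library, so that genes can be compared per length. Over all 84 libraries CLC was the most abundant, with a lowest, median and highest level of 136, 422 and 880.0 FPKM. STX-12g spanned 75.2 to 401 FPKM with a median of 172. SAR was low, with a median of 13.5 FPKM, a highest value of 81.0 and 7 libraries in which it was listed at 0. Estimated from the low values, depth ranged over 510000 to 14230000 reads per library, and the shallowest were number 3 of LD at ZT0, ZT4 and ZT8. In LD SAR stood on a median of 50.5 estimated reads per library, against 2585 for CLC and 750 for STX-12g, so its values carry the largest counting error. Libraries of LD, SD and LL stood in one table and those of DD in another. Each library was scaled by itself, and darkness, table and sample number cannot be told apart in the comparisons with DD. In those of LL with LD or SD, light and sample number cannot be told apart either. According to the methods, fresh medium was added during the light period, at a dilution of 0.4 per day in LD and 0.2 in SD. Day length and dilution thus cannot be told apart between LD and SD.

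SAR was the member whose daily curve changed most with day length. In LD the transcript was nearly absent at dawn and in the early day and highest in the late day and at dusk. In SD it was highest at ZT8, sampled as the lights went off, and low at ZT16. In LD SAR had 4.87, 3.95 and 0 FPKM at ZT0 (numbers 1 to 3), 2.58, 0 and 0 at ZT4, and 13.4, 11.9 and 17.03 at ZT8. It then had 53.1, 58.6 and 23.98 FPKM at ZT12, 81.0, 45.5 and 50.7 at ZT16, and 18.4, 23.6 and 16.4 at ZT20. Every library of ZT12 and ZT16 was above every library of the other 4 time points, and the libraries of ZT12 and ZT16 overlapped. In the number 3 libraries at ZT0 and ZT4 a count of 3 reads would equal 8.65 and 5.66 FPKM, so these 2 zeros set no low limit, whereas for number 2 at ZT4 it would equal 0.619 FPKM.

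In SD SAR had 16.8, 7.73 and 11.2 FPKM at ZT0, 12.9, 9.33 and 0 at ZT4, and 34.1, 45.0 and 50.6 at ZT8. It had 24.4, 21.3 and 21.5 FPKM at ZT12 and 6.45, 4.10 and 2.41 at ZT16, and stood at 18.9, 14.9 and 9.73 at ZT20. The ZT8 libraries lay above all others, those of ZT12 came next, and the remaining 4 time points overlapped with their neighbours in the order of means. The level at ZT20 was above that at ZT16 in all 3 sample numbers.

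**Figure D1:**
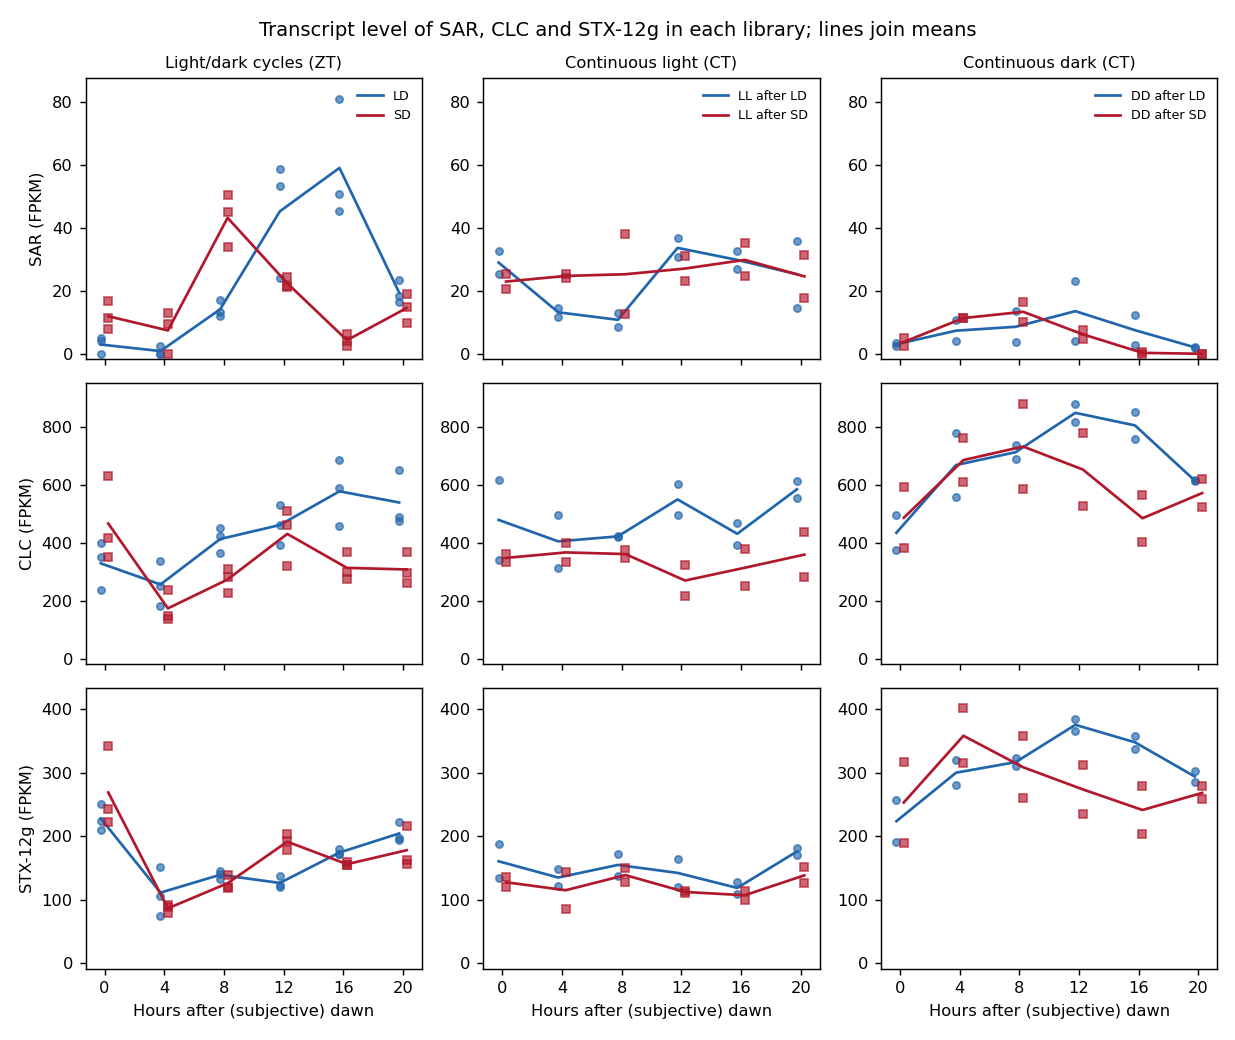
FPKM of SAR, CLC and STX-12g against hours after dawn or subjective dawn, 1 row per gene and 1 column for cycles, continuous light and continuous darkness; circles are libraries of LD or after LD, squares those of SD or after SD, and lines join means. SAR was highest at ZT16 in LD and ZT8 in SD, while CLC and STX-12g rose to higher levels in DD than in any other regime.

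A 24 h cosine fitted to FPKM placed the SAR peak at 14.6 ± 0.509 h (SE) after dawn in LD and at 8.68 ± 1.23 h in SD. The difference of -5.90 ± 1.33 h passed the delta-method test (adjusted p = 3.04e-05 over all genes), as did that of 60.1% of the genes tested. The amplitude, the rise of the cosine above its mean, went from 29.3 ± 3.91 FPKM in LD to 12.01 ± 3.88 FPKM in SD (adjusted p = 0.0111, delta method). Amplitudes differed for 25.4% of genes. Neither difference passed for CLC, whose peaks were at 16.0 ± 0.717 h and 17.6 ± 3.11 h, nor for STX-12g, with 20.8 ± 0.763 h and 20.2 ± 1.81 h. The study showed SAR and CLC as examples of genes highest at ZT16 in LD and STX-12g as an example of a peak at ZT0 in SD. For that reason no rhythm test, of 24 h or 12 h, is given for these 3 gene and regime pairs, and comparisons with LD or SD are not free of that choice.

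**Figure D2:**
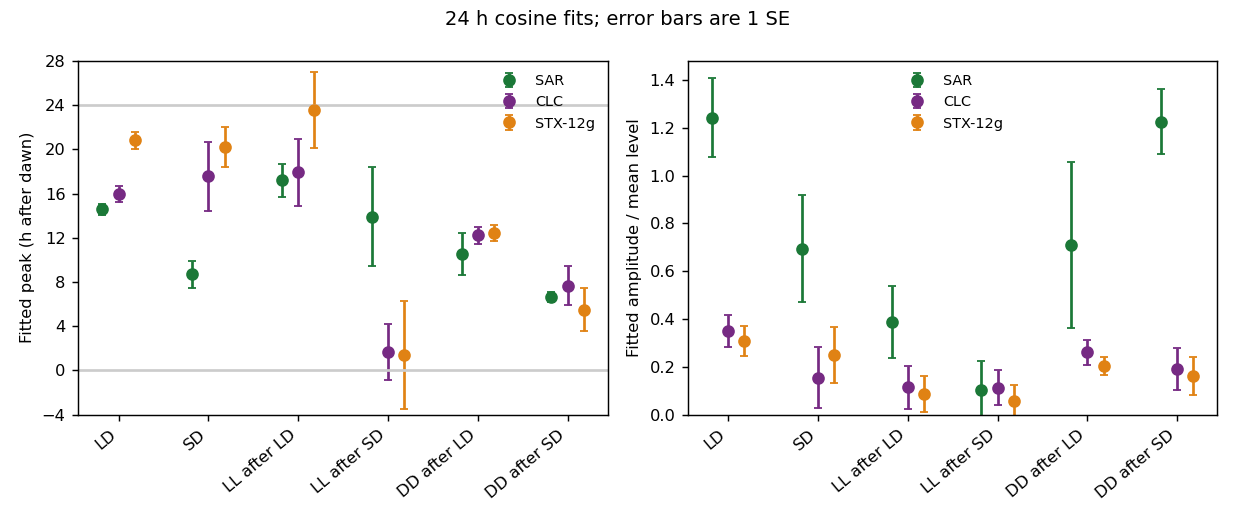
Left, peak time of the 24 h cosine in hours after dawn; right, amplitude divided by mean level, for SAR, CLC and STX-12g in each regime, with error bars of 1 SE. The SAR peak lay at 14.6 h in LD and 8.68 h in SD, and in DD after LD those of CLC and STX-12g were at 12.2 and 12.4 h.

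CLC rose through the day in LD and, in SD, had high means at dawn and at ZT12 with low values at ZT4. In LD CLC had 351, 398 and 237 FPKM at ZT0, 181, 335 and 251 at ZT4, and 421, 450.4 and 365 at ZT8. The later LD libraries had 531, 461 and 390.1 FPKM at ZT12, 686, 588 and 458 at ZT16, and 476, 651 and 489.7 at ZT20. Neighbouring time points in the order of means overlapped throughout, while every ZT16 and ZT20 library exceeded every ZT0 and ZT4 library. In SD CLC had 352, 417 and 628 FPKM at ZT0, 136, 148 and 235 at ZT4, and 226, 283 and 310.0 at ZT8. It had 462, 509 and 319.6 FPKM at ZT12, 298, 368 and 273 at ZT16, and 295, 259.6 and 368 at ZT20. All 3 SD libraries of ZT4 were below all those of ZT0 and ZT12.

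STX-12g had its highest mean at dawn under both day lengths and was lower in every library 4 h later. In LD STX-12g had 250.1, 210.3 and 223 FPKM at ZT0, 75.2, 106 and 152 at ZT4, and 145, 133 and 140.2 at ZT8. It then had 137, 119.7 and 123 FPKM at ZT12, 179.6, 172 and 172 at ZT16, and 194, 222 and 197 at ZT20. Levels climbed again after ZT12, and the ZT16 libraries lay above those of ZT8 and below those of ZT20 with no overlap. In SD STX-12g had 222, 243 and 342 FPKM at ZT0, 92.1, 79.4 and 88.1 at ZT4, and 118, 121 and 139 at ZT8. It reached 203, 193 and 178 FPKM at ZT12, before 155, 154 and 159 at ZT16 and 162, 156 and 216 at ZT20. The SD curve thus had a maximum at ZT0 above all other libraries, a minimum at ZT4 below all others and a smaller rise at ZT12.

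A circular rank test with permutation p-values asked whether levels rose and fell once in 24 h. It called STX-12g in LD (adjusted p = 0.00533), where 69.4% of genes passed. In SD, where 50.2% of genes passed, the permutation test called neither SAR (adjusted p = 0.0785) nor CLC (adjusted p = 0.193). Without sample number 1 the call of STX-12g in LD was lost (adjusted p = 0.0643, permutation). With a 12 h period, which 4.43% of genes passed in SD, SAR (adjusted p = 0.0649, permutation) and CLC (0.0673) missed the threshold of 0.05. In LD STX-12g was not called at 12 h (adjusted p = 1.0, permutation), against 0.013% of genes, which is 1 gene.

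The daily curves of all 3 genes differed between day lengths, and the mean level of CLC did too. In limma on log2(FPKM + 1), the regime by time terms passed for SAR (F = 9.87, adjusted p = 6.25e-05), CLC (F = 4.04, adjusted p = 0.0139) and STX-12g (F = 3.79, adjusted p = 0.0184), as for 60.5% of genes. Leaving out single sample numbers moved the adjusted p of CLC up to 0.0656 (SD number 2; 0.0655 without LD number 3). For STX-12g it reached 0.15 without SD number 2, and the call was also lost without SD number 1, LD number 2 or LD number 3. The mean over the 6 time points was lower in SD for CLC by limma, with a log2 difference of -0.41 ± 0.10 (SE, adjusted p = 0.0022). Lower levels in SD were called for 17.8% of genes and higher ones for 26.1%. With 1 value per sample number, the CLC difference kept its size and lost its call (adjusted p = 0.0697). The differences were 0.08 ± 0.28 for SAR (adjusted p = 0.837) and -0.0016 ± 0.072 for STX-12g (adjusted p = 0.99).

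At single time points limma called SAR higher in SD at ZT0 (adjusted p = 0.0187, 41% of genes called in either direction) and at ZT4 (adjusted p = 0.0442, 34.2% called), where LD libraries were listed at 0. At ZT8, where 34.1% of genes were called, SAR missed the threshold (adjusted p = 0.0814). At ZT16 SAR was lower in SD by a log2 difference of -3.52 ± 0.68 (adjusted p = 1.68e-04), and CLC by -0.87 ± 0.26 (adjusted p = 0.00913), with 33.8% of genes called. CLC was also lower in SD at ZT20, by -0.81 ± 0.26 (adjusted p = 0.0169, 31.8% called). STX-12g differed only at ZT12, where SD was higher by 0.59 ± 0.18 (limma, adjusted p = 0.0104, 28.8% called).

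In continuous light SAR and STX-12g had smaller daily swings than in LD. SAR in LL after LD had 32.7 and 25.2 FPKM at CT0 (numbers 4 and 5), 11.8 and 14.6 at CT4, and 8.60 and 13.0 at CT8. It had 36.7 and 30.6 FPKM at CT12, 27.0 and 32.7 at CT16, and 14.7 and 35.9 at CT20. No LL library was listed at 0, and those of CT4 and CT8 were below all libraries of CT0, CT12 and CT16. In LL after SD SAR ranged over 12.5 to 38.0 FPKM, with means of 23.0 to 29.8 FPKM and overlapping neighbours at every step. CLC ranged over 314 to 616 FPKM in LL after LD and 217 to 435 FPKM in LL after SD. STX-12g ranged over 110 to 187 FPKM and 86.0 to 151 FPKM, respectively.

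The amplitude of SAR fell from 29.3 FPKM in LD to 9.18 ± 3.55 FPKM in LL (adjusted p = 8.50e-04, delta method) and that of STX-12g from 50.4 ± 10.1 to 12.4 ± 11.2 FPKM (adjusted p = 0.0305). Amplitudes differed in that comparison for 43% of genes. For CLC it was 150.3 ± 28.2 FPKM in LD and 54.5 ± 43.2 FPKM in LL (adjusted p = 0.119). Against SD none of the 3 amplitude differences passed (SAR 0.157, CLC 0.891 and STX-12g 0.238). The permutation rank test called no member in LL after LD (adjusted p = 0.342 to 0.661), where it called 0% of genes, and 1696 genes had an unadjusted p under 0.05. A limma fit with cosine terms also called 0 genes there. In LL after SD no member was called either (adjusted p = 0.849 to 1, permutation), against 0.0522% of genes.

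The mean of SAR was 23.6 FPKM in both LD and LL after LD. On the log2(FPKM + 1) scale, which weighs the low hours more, SAR was higher in LL by 0.85 ± 0.25 (limma, adjusted p = 0.0177), with 18.7% of genes higher and 3.82% lower. After SD the difference was 0.98 ± 0.29 (limma, adjusted p = 0.00896), with 28.9% higher and 13.4% lower. Both calls were lost with a pseudocount of 0.1 (adjusted p = 0.0533 and 0.0516) and with 1 value per sample number (0.197 and 0.0804). Leaving out LL number 4 or LL number 5 after LD, LD number 2 or LL number 4 after SD also ended them, with adjusted p up to 0.275 after LD and 0.135 after SD. STX-12g was lower in LL than in SD by -0.37 ± 0.08 (limma, adjusted p = 7.87e-04), a call lost with 1 value per sample number (adjusted p = 0.104). Its difference from LD was -0.11 ± 0.09 (adjusted p = 0.405), and those of CLC were 0.20 ± 0.12 (adjusted p = 0.24) and 0.11 ± 0.12 (adjusted p = 0.47), by limma. For the LL against SD comparison another scaling of the libraries, by the upper quartile, moved the share of higher among called genes from 68.4% to 56.0%.

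The curve over the day differed between LL and LD for SAR (limma, adjusted p = 8.88e-04, 32.9% of genes called), and the call was lost without LL number 4 or LL number 5 (0.0763 and 0.0555). For CLC and STX-12g the adjusted p was 0.286 and 0.081. Between LL and SD it differed for STX-12g (adjusted p = 0.00198) and CLC (0.0145), with 36.5% of genes called, while SAR had 0.0518. The call of CLC was lost without LL number 4, LL number 5, SD number 1 or SD number 2 (adjusted p up to 0.178).

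In darkness SAR was lower than in the other regimes, while CLC and STX-12g rose to their highest mean levels. In bulk RNA the values are shares of all transcripts, so more RNA of a gene and less RNA of the others cannot be told apart. Averaged over the 6 time points, SAR had 28.9, 23.9 and 18.01 FPKM in the 3 sample numbers of LD, and 10.9 and 3.14 FPKM in those of DD after LD. It had 18.9, 17.1 and 15.9 FPKM in SD, and 6.83 and 4.82 FPKM in DD after SD. CLC had 441, 481 and 365 FPKM in LD and 669 and 691 FPKM in DD after LD. It had 295, 331 and 356 FPKM in SD and 505 and 699 FPKM in DD after SD. STX-12g had 163, 161 and 168 FPKM in LD and 304 and 315 FPKM in DD after LD. It had 159, 158 and 187 FPKM in SD and 244 and 324 FPKM in DD after SD. For each gene the sample numbers in darkness did not overlap those of the matching cycle. How many of all genes had such a gap was not counted, so it is not shown to be particular to these genes.

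**Figure D3:**
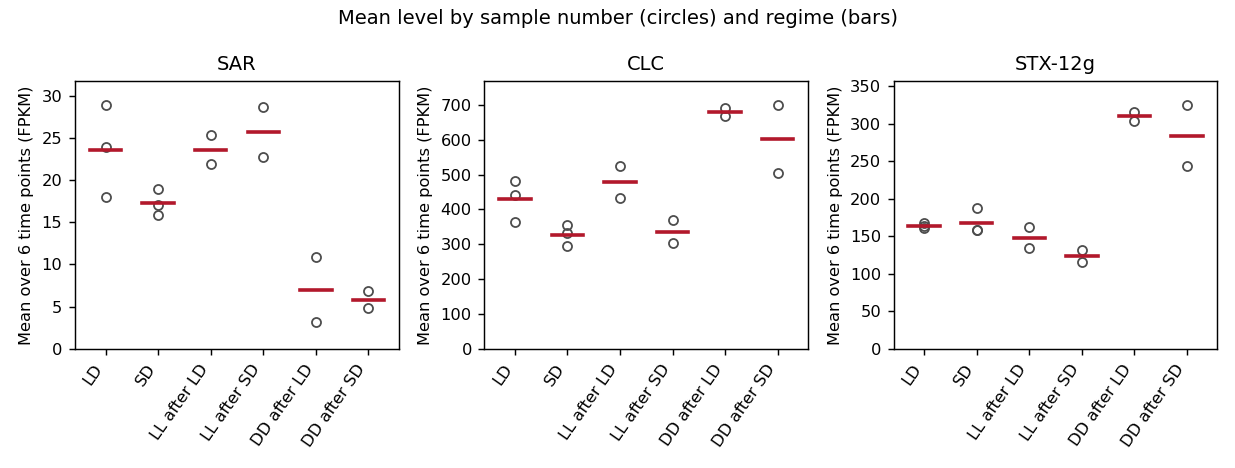
Mean FPKM over the 6 time points for SAR, CLC and STX-12g in each regime; circles are sample numbers (3 in LD and SD, 2 elsewhere) and bars the mean of the regime. In DD SAR had means of 7.01 and 5.82 FPKM, below all other regimes, and CLC and STX-12g lay above them.

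By limma SAR was lower in DD than in LD by a log2 difference of -0.99 ± 0.31 (adjusted p = 0.0113), and lower than in SD by -1.58 ± 0.28 (adjusted p = 4.11e-05). CLC was higher by 0.70 ± 0.11 (adjusted p = 1.15e-05) and 0.93 ± 0.12 (adjusted p = 1.25e-06), and STX-12g by 0.95 ± 0.08 (adjusted p = 7.45e-09) and 0.82 ± 0.09 (adjusted p = 1.64e-07). In DD after LD 27.7% of genes were higher and 26.8% lower than in LD, and after SD 24.4% were higher and 39.6% lower than in SD. The SAR call against LD was lost with a pseudocount of 0.1 (adjusted p = 0.363), with 1 value per sample number (0.168), without DD number 7 (log2 difference -0.36, adjusted p = 0.463) and without LD number 1 (-0.75, adjusted p = 0.0871). Between the 2 entrainments the DD effect did not pass a test of the difference for SAR (0.59 ± 0.43, adjusted p = 0.326), CLC (-0.23 ± 0.16, adjusted p = 0.312) or STX-12g (0.13 ± 0.12, adjusted p = 0.457), by limma. Same-numbered libraries deviated together in darkness, and neither this fit nor the main level fits held a sample number term. Their SE and p-values do not allow for that pairing, so this test does not settle whether the effects differ.

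Against LL, with which they share the DD libraries, the directions were alike. SAR was lower in DD by -1.84 ± 0.29 after LD (limma, adjusted p = 5.51e-05) and -2.56 ± 0.18 after SD (adjusted p = 9.25e-09). CLC was higher by 0.50 ± 0.12 (adjusted p = 0.00152) and 0.82 ± 0.13 (adjusted p = 4.96e-05), which did not hold with 1 value per sample number (0.192 and 0.0611). STX-12g was higher by 1.06 ± 0.09 (adjusted p = 1.30e-07) and 1.18 ± 0.12 (adjusted p = 2.93e-07), by limma. After LD 27.7% of genes were higher and 37.5% lower, and after SD 23% were higher and 45.3% lower. Upper-quartile scaling moved the higher share among called genes after SD from 33.6% to 46.0%. It moved the median of all genes from -0.14 to -0.04 in DD against SD, from -0.11 to 0.01 in DD against LL after LD, and from -0.24 to -0.06 in DD against LL after SD, and no member changed direction in any DD comparison.

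The hours at which CLC and STX-12g were high also moved in darkness. In DD after LD CLC had 374 and 494 FPKM at CT0 (numbers 6 and 7), 558 and 778 at CT4, and 737 and 687 at CT8. It reached 880.0 and 816 FPKM at CT12, followed by 852 and 757 at CT16 and 613 and 616 at CT20. STX-12g followed with 190.3 and 257 FPKM at CT0, 281 and 319.6 at CT4, and 323 and 310.1 at CT8. It then had 385 and 366 FPKM at CT12, 359 and 337 at CT16, and 286 and 302 at CT20. Both genes were lowest at CT0, the hour at which STX-12g was highest in LD, and highest at CT12.

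In DD after SD CLC had 381 and 591 FPKM at CT0, 609 and 760.4 at CT4, 586 and 878 at CT8, 528 and 777 at CT12, 403 and 566 at CT16, and 522 and 620.0 at CT20. STX-12g had 189.8 and 317 FPKM at CT0, 315 and 401 at CT4, 259.7 and 358 at CT8, 235 and 313 at CT12, 204 and 279 at CT16, and 258 and 279 at CT20. Number 7 exceeded number 6 at every time point for both genes, and neighbouring time points overlapped.

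SAR in DD after LD had 3.48 and 2.59 FPKM at CT0, 10.8 and 3.93 at CT4, 13.5 and 3.66 at CT8, 23.0 and 4.08 at CT12, 12.3 and 2.69 at CT16, and 2.24 and 1.89 at CT20. Number 6 swung widely and number 7 stayed between 1.89 and 4.08 FPKM. In DD after SD SAR had 5.07 and 2.47 FPKM at CT0, 11.2 and 11.5 at CT4, 16.5 and 10.1 at CT8, and 7.53 and 4.85 at CT12. At CT16 it had 0.591 FPKM in number 6 and was listed at 0 in number 7, and at CT20 it was listed at 0 in both, where 3 reads would equal 0.548 and 0.572 FPKM. The libraries of CT4 and CT8 lay above all others, and those of CT16 and CT20 below all others.

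Cosine peaks in DD after LD were at 12.2 ± 0.774 h for CLC, -3.71 ± 1.06 h from that in LD (adjusted p = 0.00372), and at 12.4 ± 0.698 h for STX-12g, -8.40 ± 1.03 h from LD (adjusted p = 2.49e-13), by the delta method. Peak times differed in that comparison for 27.7% of genes, and SAR, with 10.6 ± 1.88 h, did not pass (adjusted p = 0.105). The amplitude of SAR fell to 4.97 ± 2.44 FPKM (adjusted p = 2.72e-06, delta method, 26.1% of genes called), as its mean level fell too. Divided by the mean level, the SAR amplitude was 1.24 in LD and 0.71 in DD after LD. It was 0.69 in SD and 1.23 in DD after SD, and these ratios were not tested. After SD the peaks were at 7.67 ± 1.78 h for CLC (-9.90 ± 3.58 h from SD, adjusted p = 0.0223) and 5.51 ± 1.92 h for STX-12g (9.29 ± 2.64 h from SD around the clock, adjusted p = 0.00261). There 31.6% of genes passed, and SAR at 6.64 ± 0.42 h did not (adjusted p = 0.239). The fitted CLC amplitude was 50.7 ± 41.3 FPKM in SD, and the rank test called no CLC rhythm in SD or in DD after SD. The peak times behind the CLC shift from SD are therefore poorly set.

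For the 24 h rhythm itself, the permutation rank test called SAR in DD after SD (adjusted p = 0.0129), as for 37.6% of genes, but neither CLC (0.465) nor STX-12g (0.385). Leaving out either sample number leaves 1 library per time point, too few for the test to call any gene. The stability of the SAR call could therefore not be checked in this way. In DD after LD the test called 0% of genes, and SAR, CLC and STX-12g had adjusted p of 0.0802, 0.0736 and 0.0557. There 2711 genes had an unadjusted p under 0.05, and the limma fit with cosine terms called 30.1% of genes, among them CLC (adjusted p = 0.0288) and STX-12g (adjusted p = 0.0376) but not SAR (0.14). Same-numbered samples deviated together in DD, and with the numbers as a replicate block the permutation test called 42.9% of genes and all 3 members, SAR with an adjusted p of 0.0352 and CLC and STX-12g with 0.0195 each.

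The daily curve differed between DD and LD for SAR (limma, adjusted p = 0.00336) and STX-12g (0.00103), with 29% of genes called, while CLC had 0.133 and, with the replicate block, 0.0472. Without LD number 2 the SAR call was lost (adjusted p = 0.0519), and without DD number 6 that of STX-12g (0.0735). Between DD and SD it differed for SAR (adjusted p = 0.00773), CLC (0.0146) and STX-12g (5.84e-04), with 34.7% called. The SAR call was lost without DD number 6 or DD number 7 (0.11 and 0.151), and that of CLC without DD number 6 or 7 or SD number 1 or 2 (up to 0.143). At CT4, where STX-12g and CLC were low under both cycles, DD was higher for STX-12g by 1.48 ± 0.20 against LD (limma, adjusted p = 8.67e-06) and 2.03 ± 0.23 against SD (adjusted p = 6.29e-07). For CLC it was higher by 1.41 ± 0.26 (adjusted p = 2.60e-04) and 2.01 ± 0.30 (adjusted p = 2.57e-05), with 33.4% and 34.3% of genes called at that hour, by limma. SAR at CT4 was called against LD (adjusted p = 0.0241), where 2 of the 3 LD libraries were listed at 0, and not against SD (adjusted p = 0.165).

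Across libraries CLC and STX-12g followed each other in some regimes, given here as a description since the points share libraries and time of day. Their Pearson correlation on log2(FPKM + 1) was 0.39 over the 18 libraries of LD and 0.90 over those of SD. It was 0.63 and 0.53 in LL, and 0.98 and 0.92 over the 12 libraries of DD after LD and after SD. SAR followed CLC in LD (0.80) and not in SD (0.12). Over all 84 libraries it was -0.31 between SAR and STX-12g and 0.01 between SAR and CLC.

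Partners in the same pathways were drawn from annotation words as 81 other genes of coats, adaptors, SNAREs, tethers and small GTPases. The list came mostly from the study's tables of rhythmic genes, so its share of rhythmic genes is no independent evidence. By the permutation rank test 61 of the 81 were rhythmic in LD (75.3%, against 69.4% of all genes), 18 in SD (22.2% against 50.2%), 38 in DD after SD (46.9% against 37.6%), and none in LL and DD after LD. In those 3 regimes 15 (LL after LD), 5 (LL after SD) and 28 (DD after LD) had an unadjusted p under 0.05. Of all 7668 genes 1696, 746 and 2711 did. Limma with cosine terms called 59 in LD and 15 in SD, 10 and 53 in darkness after LD and SD, and 0 in each LL regime. Of all 7668 genes it called 5325 in LD, 3687 in SD, 2311 and 3894 in darkness, and 0 and 20 in LL. Of the 61 rhythmic in LD, 25 (41.0%) were highest at ZT16, as SAR and CLC were, and 19 (31.1%) at ZT12. Of all 5324 rhythmic genes 22.9% and 16.1% were highest at those hours. Among 16 rhythmic SNAREs and Sec1-like proteins, the fusion machinery to which STX-12g belongs, 10 were highest at ZT16 and 1 at ZT0. Of all rhythmic genes 22.9% and 21.6% were highest at those hours. The counts at ZT16 include COPD (ostta03g05300), a COPI coat gene, and STX-11g (ostta11g02920), a syntaxin type gene. The study showed both as examples of that LD peak. From these same data it also named intracellular transport as a main process of its ZT16 genes. The counts at ZT16 are therefore no independent evidence either.

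**Figure D4:**
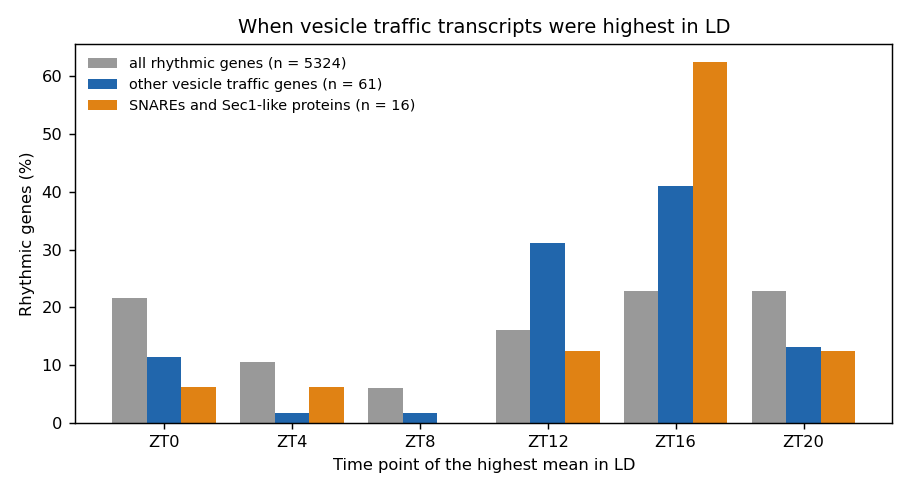
Percentage of genes rhythmic in LD whose mean was highest at each time point, for all 5324 rhythmic genes, the 61 other vesicle traffic genes and, within these, 16 SNAREs and Sec1-like proteins. The bars at ZT16 stand at 22.9%, 41.0% and 62.5%.

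Of the other genes annotated as ARF/SAR type GTPases, which recruit coats to Golgi or endoplasmic reticulum membranes, ostta15g01410 was also lowest near dawn in LD and rose earlier in the day than SAR. It had 5.58 ± 5.07 FPKM (SD, n = 3) at ZT0, 38.3 ± 19.6 at ZT4, 79.5 ± 37.0 at ZT8, 80.1 ± 12.8 at ZT12 and 77.8 ± 35.0 at ZT16 in LD. It was highest in SD at ZT8 with 97.5 ± 44.2. Its rhythm was called in LD (adjusted p = 0.00211), SD (0.0392) and DD after SD (0.0222) by the permutation test. The more abundant ostta12g02770 had 235 ± 25.7 FPKM at ZT0 and 986 ± 254 at ZT12 in LD (adjusted p = 1.81e-04, permutation), and 453 to 688 FPKM in SD, where its rhythm was not called (0.0673). Unlike these, ostta01g06620 was highest in LD at ZT0 with 94.2 ± 23.2 FPKM and lowest at ZT4 with 40.4 ± 5.65 (adjusted p = 0.0214, permutation). In LD ostta10g02880 was highest at ZT16 with 335 ± 69.2 FPKM (0.0015), and ostta14g02400 (0.053) and ostta17g01370 (0.0643) were not called. COPD (ostta03g05300), the delta subunit of the COPI coat that carries vesicles back from the Golgi, had 141 ± 10.6 FPKM at ZT0 and 297 ± 20.0 at ZT16 in LD. STX-11g (ostta11g02920), which shares the syntaxin annotation, had its highest LD mean at ZT16 with 193 ± 29.8 FPKM. The study showed both genes as examples of this LD peak too, so their rhythm in LD is given with no test. Of the COPII genes, Sec31 (ostta12g00870), a subunit of the outer cage, was called in LD with 76.9 ± 9.48 FPKM at ZT12 (adjusted p = 0.00126, permutation). The Sec23/24 type gene ostta08g03320, of the inner layer, was called too (0.0302), and Sec16 (ostta11g02040), a scaffold of the exit sites, was not (0.08).

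In darkness these relatives, like the members, moved in both directions. Besides SAR, 4 of the 6 other ARF/SAR type genes were lower in DD after LD and 5 of 6 lower in DD after SD, by limma. Of all genes 26.8% and 39.6% were lower in these comparisons. The difference of ostta12g02770 was -1.10 ± 0.10 after LD (adjusted p = 1.93e-08) and -1.49 ± 0.13 after SD (adjusted p = 2.10e-09). Only ostta01g06620 was higher, by 0.48 ± 0.14 (adjusted p = 0.00767) and 0.27 ± 0.11 (adjusted p = 0.0382). Of the 3 genes with clathrin heavy chain repeats, ostta01g02350 rose like CLC, by 1.07 ± 0.10 (adjusted p = 1.51e-08) and 0.97 ± 0.15 (adjusted p = 1.16e-05). For ostta01g01830 it was -0.01 ± 0.15 (adjusted p = 0.975) and -0.44 ± 0.15 (adjusted p = 0.0146), and for ostta09g01700 0.24 ± 0.14 (adjusted p = 0.146) and -0.02 ± 0.16 (adjusted p = 0.902). STX-11g fell, by -0.80 ± 0.11 (adjusted p = 3.74e-06) and -0.60 ± 0.12 (adjusted p = 1.56e-04), where STX-12g rose. Sec16 was higher in both, by 0.59 ± 0.16 (adjusted p = 0.00286) and 0.41 ± 0.10 (adjusted p = 0.00183), and the coatomer alpha subunit ostta04g01570 lower, by -0.48 ± 0.13 (adjusted p = 0.00341) and -0.76 ± 0.16 (adjusted p = 2.63e-04).

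**Figure D5:**
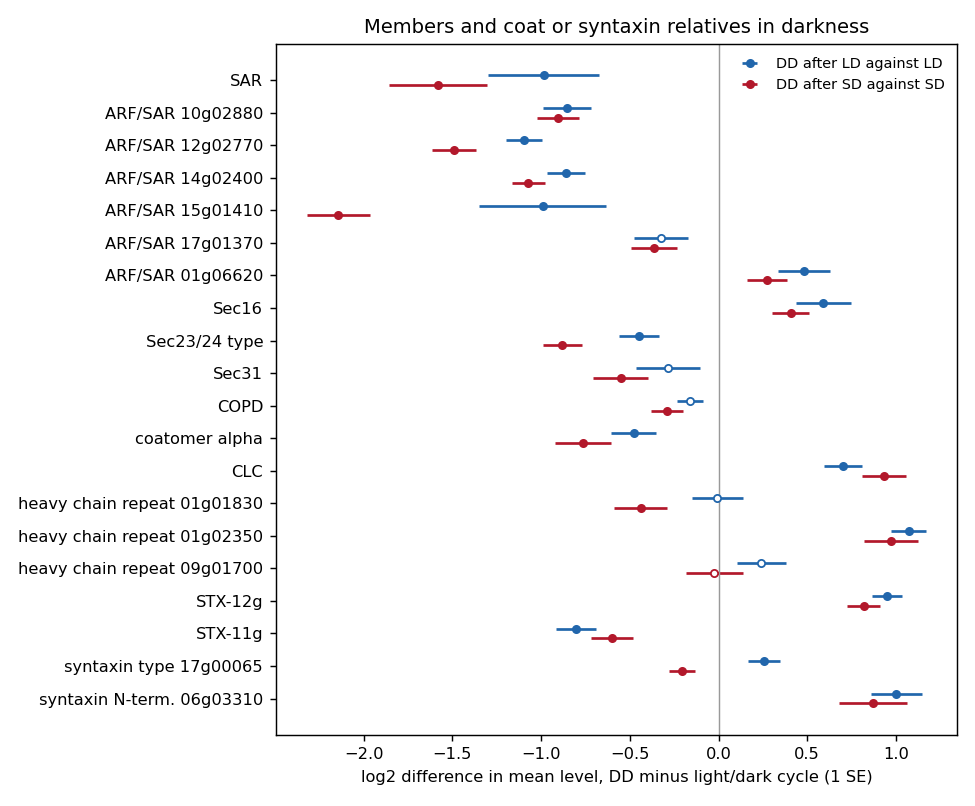
Log2 difference in mean level between darkness and the matching light/dark cycle, with bars of 1 SE, for the members and genes that share a coat or annotation with them; filled points passed limma at an adjusted p of 0.05 and white ones did not. SAR lies at -0.99 and -1.58, and CLC and STX-12g lie between 0.70 and 0.95.

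Over the whole list, 30 genes were higher (37.0%, against 27.7% of all genes) and 19 lower (23.5% against 26.8%) in DD after LD than in LD, with a median log2 difference of 0.13 against -0.0042. After SD 13 were higher (16.0% against 24.4%) and 38 lower (46.9% against 39.6%), with a median of -0.22 against -0.14. In clathrin, adaptor and ENTH/VHS proteins, the group of CLC, 13 of 26 were higher and 6 lower in DD after LD, and 6 higher and 12 lower after SD. Between day lengths 22 of the 81 were higher in SD (27.2%, against 26.1% of all genes) and 4 lower (4.94% against 17.8%), with a median of 0.08 against 0.05. The daily curve of 34 differed (42.0% against 60.5%). In LL 9 were higher than in LD (11.1% against 18.7%) and 3 lower (3.70% against 3.82%). Against SD, 17 were higher (21.0% against 28.9%) and 10 lower (12.3% against 13.4%).

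Among 6875 genes with a mean of at least 10 FPKM, the course over the 36 means per regime and time point most like that of SAR was that of ostta05g03330, annotated as a telomere-binding protein (Pearson r = 0.96). The next were ostta04g00580 with no annotation (0.95), ostta18g00830, an exodeoxyribonuclease (0.95), ostta01g02370, a VPS26 protein, which in yeast and animals is a part of the retromer that returns receptors from endosomes (0.95), and ostta11g02505, a nucleoside diphosphate kinase (0.95). For CLC they were ostta03g04260 with an RNA-binding domain (0.93), ostta07g01900 with a cyclase/dehydrase domain (0.93), ostta03g01540 (0.92) and ostta09g00975 (0.92), both unnamed, and ostta17g00970 with a ferredoxin-type iron-sulfur domain (0.91). For STX-12g they were the kinase ostta09g00800, ostta01g01120 of unknown function, the unannotated ostta11g01370 and the TRAP-like ostta12g00680, at 0.96 each, and the unannotated ostta04g05160 (0.96). STX-12g was the 155th gene in likeness to CLC (0.82), and CLC the 282nd to STX-12g, whereas SAR had an r of -0.05 with CLC and -0.40 with STX-12g.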

How the data were processed

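Total RNA of liquid cultures was sequenced in 84 libraries. The authors mapped reads with HISAT2, assembled and quantified transcripts with StringTie, and deposited FPKM per gene in 2 tables, 1 of LD, SD and LL and 1 of DD. Versions are not given in the sources used here. Among the FPKM values deposited for DD, 182 were whole numbers, of which 181 were divided by 1000 because this brought them near the gene's other values; none belonged to the 3 genes. Read counts were not used here, so depth was estimated from the steps between low values, with a tolerance of 0.1 around whole aligned bases and reads of 75 nt.

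Samples were grouped by regime and time point from their titles. The members, lists and tests were chosen with earlier results of these data known. Rhythms were tested per regime with a circular umbrella rank test after the idea of RAIN (6 troughs, peak 8, 12 or 16 h later, 1000000 permutations), and with 3 time classes for a 12 h period. Cosines were fitted to FPKM by least squares with delta-method errors. Levels, time points and curves were compared with limma 3.58.1 (R 4.3.3) on log2(FPKM + 1), with a trend in eBayes. The pseudocount of 1 affects the differences of low genes such as SAR. With 0.1 the SAR differences of LL from LD and SD grew, and that of DD from LD shrank. All p-values were adjusted by Benjamini-Hochberg over all 7668 genes (for cosines, those that could be fitted), with 0.05 as threshold. The rank test, the cosine fit and the level test were checked on simulated data with independent noise in each library. Same-numbered libraries deviated together in the real data, so that check does not show the error rate of the tests here. Tests other than the F test and the rank test were two-sided. Python 3.11.15 was used for the rest.

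Genes named were the 3 members, COPD, STX-11g, genes sharing a member's annotation, their coat partners, and the 5 genes most correlated with each member. Alternatives were a pseudocount of 0.1, only genes of at least 1 FPKM, upper-quartile scaling, 1 value per sample number, a replicate block, limma with cosine terms, and leaving out each sample number. In the 2 dark regimes, libraries with the same number and hour deviated together from their group means (r of 0.325 to 0.633 in 12 of 12 pairs, all over 0.1), so numbers pair samples there. No 2 libraries held identical values. Names and lengths of 7661 genes were matched to RefSeq, and no sequence is printed.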

Additional observations from a re-analysis of the deposited data

Results flagged for a closer look

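The difference between SD and LD changed with the time point for each of the 3 genes. By limma's F test of the regime by time terms the adjusted p was 6.25e-05 for SAR, 0.0139 for CLC and 0.0184 for STX-12g. For SAR the sign turned over the day, with higher means in SD at ZT0, ZT4, ZT8 and lower ones at ZT12, ZT16 and ZT20. Since 60.5% of all genes passed the same test, this is not particular to the 3 genes.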

How the results depend on the processing

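Of the 207 values computed under settings that keep all samples, 186 kept their direction and side of the threshold. The STX-12g difference between SD and LD turned from -0.0016 to 0.031 with upper-quartile scaling, which also brought the SAR rhythm in SD past the threshold (adjusted p = 0.0435, permutation) and took the CLC curve in DD against SD out (0.0641). A pseudocount of 0.1 ended the SAR level calls in LL against LD (log2 difference 1.43), LL against SD (1.22) and DD against LD (-0.63). With 1 value per sample number the differences kept their sizes and the calls ended for CLC in SD against LD (-0.41), SAR in LL against LD (0.85), LL against SD (0.98) and DD against LD (-0.99), STX-12g in LL against SD (-0.37), and CLC in DD against LL after LD (0.50) and after SD (0.82). Over all genes that setting called 1858 against 3366 in SD against LD and 227 against 1724 in LL against LD, since it has fewer samples.

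The replicate block gave the 24 h rhythm in DD after LD an adjusted p of 0.0352 for SAR and 0.0195 for CLC and STX-12g, and the limma cosine terms gave CLC 0.0288 and STX-12g 0.0376. With the block the curve of SAR in LL against SD had 0.0286 (0.0441 among genes of at least 1 FPKM) and that of CLC in DD against LD 0.0472, and no other call changed. After LD the block gave 716 called genes in LL and 3290 in DD, against 0 and 0 without it, and in LL after SD 21 against 4. In LD and SD it gave 5559 and 4536, against 5324 and 3849. Between LD and SD 7 of 18 same-numbered pairs correlated over 0.1, and between the LL regimes 0 of 12, so a number does not pair samples there. Across the hours of 1 regime more pairs of 1 number did, with 20 of 45 in LD, 32 of 45 in SD, and 18 and 26 of 30 in LL after LD and after SD. The cause of the changes under the block was not tested.

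Leaving out 1 sample number, the adjusted p of the rhythm ran over 0.0409 to 0.0643 for STX-12g in LD and 0.24 to 0.248 for SAR in DD after SD. For curves it ran over 0.014 to 0.0656 (CLC, SD against LD), 0.00462 to 0.15 (STX-12g, SD against LD), 7.09e-04 to 0.0763 (SAR, LL against LD), 0.0294 to 0.43 (STX-12g, LL against LD), 0.00929 to 0.452 (SAR, LL against SD) and 8.71e-04 to 0.178 (CLC, LL against SD). In DD it ran over 0.0101 to 0.0519 (SAR, against LD), 0.00104 to 0.0735 (STX-12g, against LD), 7.03e-04 to 0.151 (SAR, against SD) and 0.00502 to 0.143 (CLC, against SD). Log2 level differences ran over 0.59 to 1.09 (SAR, LL against LD), 0.70 to 1.20 (SAR, LL against SD) and -1.61 to -0.36 (SAR, DD against LD). Uncalled ones that changed sign ran over -0.18 to 0.36 (SAR, SD against LD), -0.065 to 0.038 (STX-12g, SD against LD), -0.25 to 0.03 (STX-12g, LL against LD) and -0.043 to 0.26 (CLC, LL against SD). Number 3 of LD had 510000 and 780000 reads at ZT0 and ZT4, where SAR was listed at 0.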
